A study of Mus musculus with 8 samples.

Results

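Chemokines, their receptors and the receptors of the interleukins were compared between 2 vessels of fetal mice, the ductus arteriosus and the aorta. The members were all genes whose probe sets carried a single symbol of the Ccl, Cxcl, Ccr, Cxcr, Ackr or interleukin receptor (Il, a number, r) families, without Ccl21a and Cxcl15. Where a gene had several probe sets, the one whose mean over all 8 arrays was highest stood for it. The rule found 85 genes among 18193: 18 CC chemokines, 12 CXC chemokines, 10 CC chemokine receptors, 5 CXC chemokine receptors, 4 atypical receptors and 36 interleukin receptor genes. The last family is defined by its symbols, so it also holds Il1rn, a secreted antagonist of interleukin-1 and not a receptor. Ccl19, Ccl21b, Ccl21c, Ccl21d and Ccl27b occurred only on probe sets shared with other symbols and were not members. Il11ra1 was not analysed here.

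Chemokines are small secreted proteins that bind heparan sulphate and draw cells along a gradient through G protein-coupled receptors. Homeostatic chemokines, such as CXCL12, are made constitutively and guide cells during development, while inflammatory chemokines, such as CCL2, are induced and recruit leukocytes. Atypical receptors (Ackr genes) bind chemokines without classical G protein signalling and remove or transport them. Interleukin receptors pair a ligand-binding chain with an accessory or shared chain, and in the interleukin-1 family both chains carry a cytoplasmic TIR domain.

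The ductus arteriosus joins the pulmonary artery to the descending aorta before birth and closes afterwards. Total RNA of 4 ductus pools and 4 aorta pools was hybridised to Affymetrix arrays. Both tissues came from untreated wild type animals of the strain given as CD88, on gestation day 19, and each pool held the segments of up to 10 pups from 1 pregnant female. The replicates are labelled as biological, so p-values weigh the difference between tissues against the spread between pools. The number of arrays limits the precision.

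All levels are log2 RMA values, the first quartile of an array lay between 2.74 and 2.86, and no detection call was at hand. Smooth muscle markers averaged 9.84 to 10.38 on the ductus arrays and 8.72 to 9.34 on the aorta arrays, well above the first quartile in both, and 5 of 10 were called higher in the ductus. Mesothelial markers averaged 6.57 to 7.16 in the ductus and 7.98 to 9.36 in the aorta, with 9 of 10 called lower in the ductus. Endothelial markers averaged 7.14 to 7.30 in the ductus and 7.62 to 7.97 in the aorta, with 3 of 12 called lower in the ductus. Of the 12, 11 had a lower mean in the ductus, and 6 were lower there without overlap. Airway epithelial markers averaged 5.58 to 6.599 in the ductus and 3.89 to 5.18 in the aorta, with 3 of 8 called higher in the ductus. Macrophage markers averaged 6.87 to 7.49 in the ductus and 7.35 to 7.66 in the aorta. Of the 16, 1 (Lyve1) was called lower in the ductus, and 13 had a lower mean there. Lymphatic endothelial markers averaged 7.22 to 7.85 in the ductus and 7.22 to 8.503 in the aorta. Of these, 2 of 6 were called lower in the ductus, and Lyve1, on both lists, is 1 of them. In these bulk samples fewer cells of a type and less RNA per cell cannot be told apart.

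Of the 85 members, 3 were higher in the ductus (Cxcr4, Il1rl2 and Il1rap) and 2 were lower (Il18r1 and Ccl2), by limma's moderated test at an adjusted p under 0.05 over all genes. That is 5.88% of the members, against 3.86% of all genes tested. Of all genes, 1.80% were called higher and 2.06% lower. The median difference, ductus minus aorta, was -0.01 over the members and -0.03 over all genes. For 67 of the 85 members the difference was smaller than 0.5 in either direction, and 4 members differed at least 2-fold. The arrays of the 2 tissues did not overlap for 13 members (15.3%), 5 with every ductus array above and 8 with every aorta array above. The part of the smooth muscle, airway, endothelial and lymphatic markers in these differences was not tested. Over all genes the share without overlap was 11.3%. Beyond the 29 members that the naming rule picked, others such as Ccl7, Ccl12, Il1r2, Il1rn, Il18rap, Il31ra, Il20rb, Il27ra, Il17rd and Il7r were added once their values had been seen. The plot of all differences with their intervals shows most members close to 0.

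**Figure D1:**
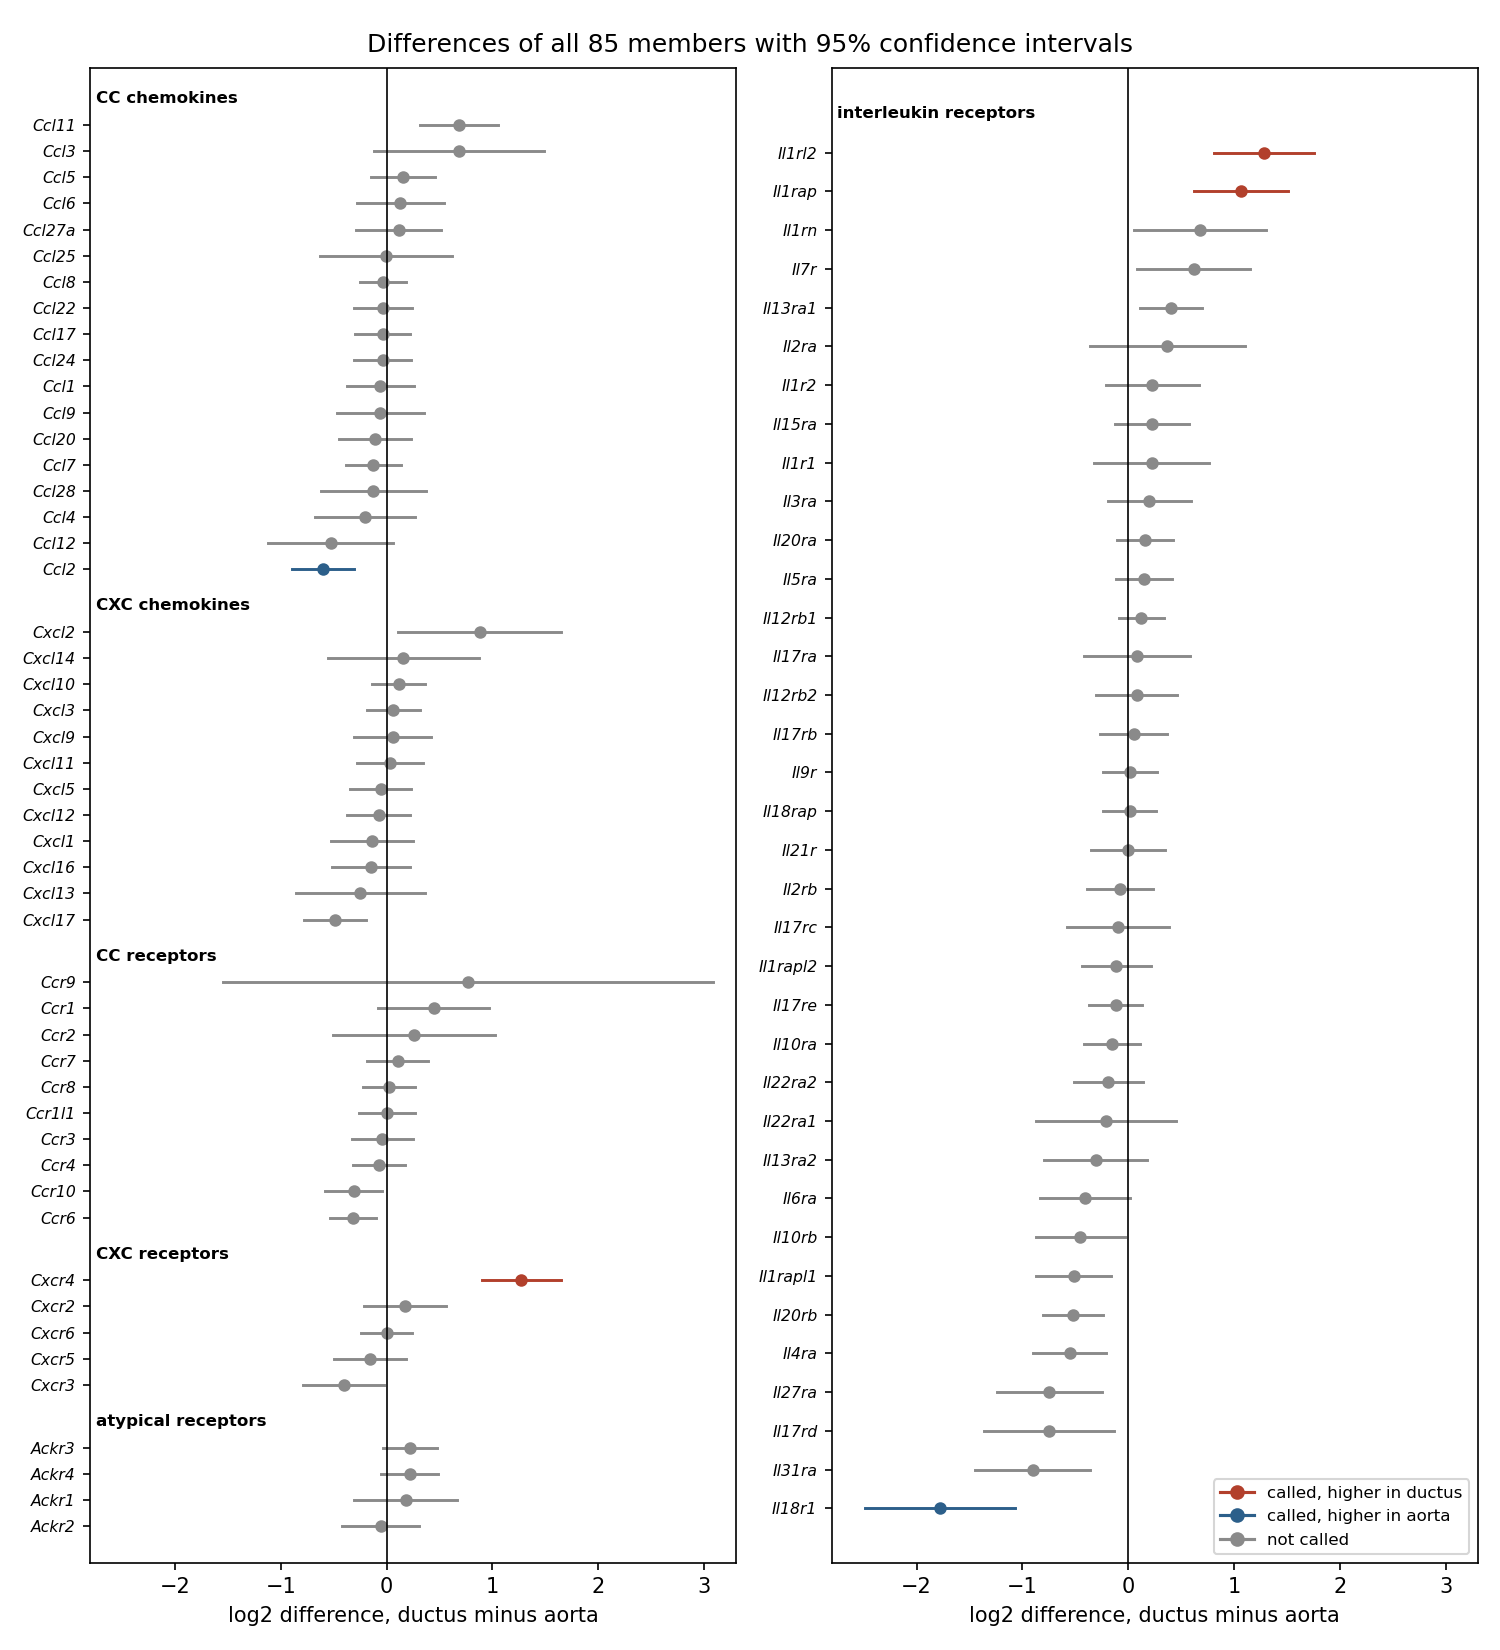
Log2 difference, ductus minus aorta, of each of the 85 members by family, as points with 95% confidence intervals from limma. The 3 members called higher in the ductus (Cxcr4, Il1rl2, Il1rap) and the 2 called lower (Il18r1, Ccl2) are coloured, and all others are grey.

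Signal was low for a part of the members. For 19 of the 85, both tissue means lay below the first quartile of every array: 4 CC chemokines, 3 CXC chemokines, 5 CC receptors, 2 CXC receptors and 5 interleukin receptor genes. Among them were Ccl20, Ccl22, Ccr4, Ccr7, Cxcl5, Cxcr5 and Il9r, none of which is shown to be above background. None of the 4 atypical receptors was that low.

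The promoters of 4 called members are shown because these genes carry the differences described below, and so that their start regions can be compared. Each is the 300-base window of RefSeq (build GRCm38.p6), 250 bases before to 50 after the gene's start, read 5′ to 3′ on the gene's own strand. Such a window was listed for 65 of the 85 members. Capitals mark matches of a TATA box (TATAAA) or a GC box (GGGCGG) on either strand. The windows lie at chr1:128592250-128592549 (minus strand) for Cxcr4, chr1:40324339-40324638 (plus strand) for Il1rl2, chr16:26581455-26581754 (plus strand) for Il1rap and chr1:40465302-40465601 (plus strand) for Il18r1, the last being 1 of 3 starts listed.
Cxcr4: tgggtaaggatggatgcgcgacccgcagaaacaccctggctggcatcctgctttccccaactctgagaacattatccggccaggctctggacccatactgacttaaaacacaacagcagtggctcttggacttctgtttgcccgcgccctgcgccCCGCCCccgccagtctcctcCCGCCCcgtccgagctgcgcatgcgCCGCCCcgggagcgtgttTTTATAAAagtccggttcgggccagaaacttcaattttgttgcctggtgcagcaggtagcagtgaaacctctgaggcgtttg
Il1rl2: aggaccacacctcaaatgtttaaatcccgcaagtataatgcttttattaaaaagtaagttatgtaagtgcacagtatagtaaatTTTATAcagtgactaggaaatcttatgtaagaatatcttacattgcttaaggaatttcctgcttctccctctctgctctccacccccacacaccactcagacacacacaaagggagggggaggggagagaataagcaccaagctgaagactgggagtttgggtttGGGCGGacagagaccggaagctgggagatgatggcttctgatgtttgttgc
Il1rap: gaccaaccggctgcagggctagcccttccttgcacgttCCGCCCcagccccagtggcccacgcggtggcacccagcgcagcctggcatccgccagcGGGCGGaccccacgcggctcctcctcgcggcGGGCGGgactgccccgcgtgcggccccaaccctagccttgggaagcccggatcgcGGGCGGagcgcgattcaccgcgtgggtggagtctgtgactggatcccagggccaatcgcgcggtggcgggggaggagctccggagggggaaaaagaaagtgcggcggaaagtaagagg
Il18r1: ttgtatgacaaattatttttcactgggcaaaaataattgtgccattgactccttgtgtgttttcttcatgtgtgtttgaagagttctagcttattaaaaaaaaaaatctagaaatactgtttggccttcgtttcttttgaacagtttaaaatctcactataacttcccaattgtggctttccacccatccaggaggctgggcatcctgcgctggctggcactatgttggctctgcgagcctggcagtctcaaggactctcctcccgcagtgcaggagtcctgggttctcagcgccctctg

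The Cxcr4 window held TATAAA at position -30 from the start, overlapped by the same letters on the other strand at -32, and 3 GC boxes at -95, -75 and -50. Its GC content was 59.3%, with 20 CpG dinucleotides, against a median GC content of 52.7% over 32851 listed promoters. The Il1rap window had no TATAAA and 4 GC boxes, with a GC content of 72.0% and 33 CpG dinucleotides. The Il1rl2 window had 43.7% GC and 3 CpG dinucleotides, with TATAAA on the other strand at -166 and a GC box at -1. The Il18r1 window, at 44.7% GC with 5 CpG dinucleotides, matched neither box. Of all listed promoters, 13.6% held TATAAA and 35.7% held GGGCGG. An AP-2 motif (GCCNNNGGC, in 16.6% of promoters), an AP-1 motif (TGANTCA, in 7.81%), an NF-kappaB motif (8.46%) and a CArG box (1.63%) were also searched. Each, searched on both strands as a fixed pattern, matched none of the 4 windows. Sites that depart from the pattern by a base were not counted. These matches describe letters in the windows and say nothing about binding.

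Among the 30 chemokines, none was called higher in the ductus and 1, Ccl2, was called lower (3.33%, against 3.86% of all genes). Ccl2 encodes the monocyte chemoattractant that signals through CCR2. Its level was 3.74, 4.02, 3.66 and 3.71 on the ductus arrays and 4.50, 4.29, 4.17 and 4.56 on the aorta arrays. Every ductus array lay below every aorta array, with means of 3.78 ± 0.165 and 4.38 ± 0.182 (SD, n = 4 each). The difference was -0.60 ± 0.130 (SE), or 1.52-fold lower in the ductus (limma, adjusted p = 0.0346). The call held in 2 of the 8 fits that left out 1 array, those without ductus replicate 2 or aorta replicate 3, and the adjusted p reached 0.102 in the others. It was also lost with the replicate number as a block (adjusted p = 0.117), with a trended robust variance prior (0.0728), with the macrophage marker mean as a covariate (0.0525) and without both arrays of highest thymocyte markers (0.184).

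Ccl2 lies in the chemokine cluster of chromosome 11, where its measured neighbours in order are Ccl7, Ccl11, Ccl12 and Ccl8. These did not share a direction. Ccl11, which encodes the eosinophil attractant eotaxin, measured 4.38, 3.80, 3.91 and 3.78 in the ductus and 3.53, 3.05, 3.20 and 3.35 in the aorta. All its ductus arrays lay above all aorta arrays, but the difference of 0.68 ± 0.163 missed the threshold (limma, adjusted p = 0.0529). Without 1 array it stayed uncalled in all 8 fits. It was called after quantile normalization (adjusted p = 0.0429), with the mean over probe sets (0.0429) and with array weights (0.0428). Since Ccl11 has 1 probe set, averaging over probe sets left its own difference unchanged. Ccl12, a second CCR2 ligand of the mouse, differed by -0.53 and Ccl7, a further one, by -0.13, with adjusted p of 0.369 and 0.669. For Ccl8 the difference was -0.03.

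Ccl6 and Ccl9, myeloid CC chemokines of the mouse, were not called. Ccl6 averaged 9.93 ± 0.220 in the ductus and 9.80 ± 0.340 in the aorta. Ccl9 averaged 9.80 ± 0.228 in the ductus and 9.86 ± 0.339 in the aorta. Their differences were 0.13 and -0.06 (limma, adjusted p = 0.803 and 0.917). Ccl27a, whose product attracts skin-homing T cells through CCR10, differed by 0.11 ± 0.178. Ccl3, a macrophage inflammatory protein that binds CCR1, measured 4.75, 2.90, 2.91 and 3.43 in the ductus and 2.81, 2.85, 2.90 and 2.70 in the aorta. The spread came mainly from ductus replicate 1, and the difference of 0.68 ± 0.358 was not called (adjusted p = 0.397). Without that array it was 0.27.

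Of the 12 CXC chemokines none was called. Cxcl2, a neutrophil attractant that acts on CXCR2, showed the widest difference of the family, 0.88 ± 0.342, with an adjusted p of 0.238. Its values were 4.00, 2.75, 3.40 and 4.31 in the ductus and 3.40, 2.66, 2.58 and 2.31 in the aorta, so the tissues overlapped. The aorta mean of Cxcl2 lay just below the first quartile of every array. Cxcl1, which acts on the same receptor, differed by -0.14 ± 0.172. For Cxcl17, a mucosal chemokine, every ductus array lay below every aorta array, at 2.60 to 2.65 in the ductus and 2.81 to 3.40 in the aorta. Its ductus mean was below the first quartile of every array, and the difference of -0.49 ± 0.130 was not called (adjusted p = 0.0780). In 1 of 8 fits without 1 array Cxcl17 was called (limma, adjusted p = 0.0298). Cxcl13, which organises lymphoid follicles, averaged 9.22 ± 0.476 in the ductus and 9.47 ± 0.435 in the aorta. Cxcl14 averaged 3.91 ± 0.476 in the ductus and 3.75 ± 0.602 in the aorta. Grouped by function, 0 of 6 measured homeostatic chemokines (10 listed) and 1 of 19 inflammatory chemokines (Ccl2) were called. That is 0.00% and 5.26%, against 3.86% of all genes, so these counts do not set the groups apart. Median differences were -0.04 and -0.03. For 5 of the 19 inflammatory chemokines, both tissue means lay below the first quartile of every array.

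The 1 chemokine receptor called was Cxcr4, the G protein-coupled receptor for CXCL12 that acts in vessel development and in the homing of blood and immune cells. It measured 10.27, 9.90, 9.93 and 10.04 on the ductus arrays and 8.77, 8.32, 8.91 and 9.05 on the aorta arrays. The lowest ductus array stood above the highest aorta array. Means were 10.03 ± 0.168 in the ductus and 8.76 ± 0.316 in the aorta (SD, n = 4 each). The difference was 1.27 ± 0.166 (SE), with a 95% interval of 0.90 to 1.65, or 2.42-fold higher in the ductus (limma, adjusted p = 0.00262). Leaving out any 1 array gave 1.13 to 1.37 and kept the call each time.

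Its ligand and the scavenging receptor for that ligand were not called. Cxcl12 measured 10.93, 10.91, 10.97 and 11.04 in the ductus and 10.73, 11.09, 11.33 and 11.02 in the aorta. The difference was -0.08 ± 0.132, with an interval of -0.37 to 0.22 (limma, adjusted p = 0.838). Ackr3, the atypical receptor that binds and clears CXCL12, averaged 10.80 ± 0.085 in the ductus and 10.58 ± 0.165 in the aorta. Its difference was 0.22 ± 0.113 (adjusted p = 0.379). The plot of levels on each array sets these genes beside the other called members. Whether the Cxcr4 difference exceeds those of Cxcl12 and Ackr3 was not tested.

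**Figure D2:**
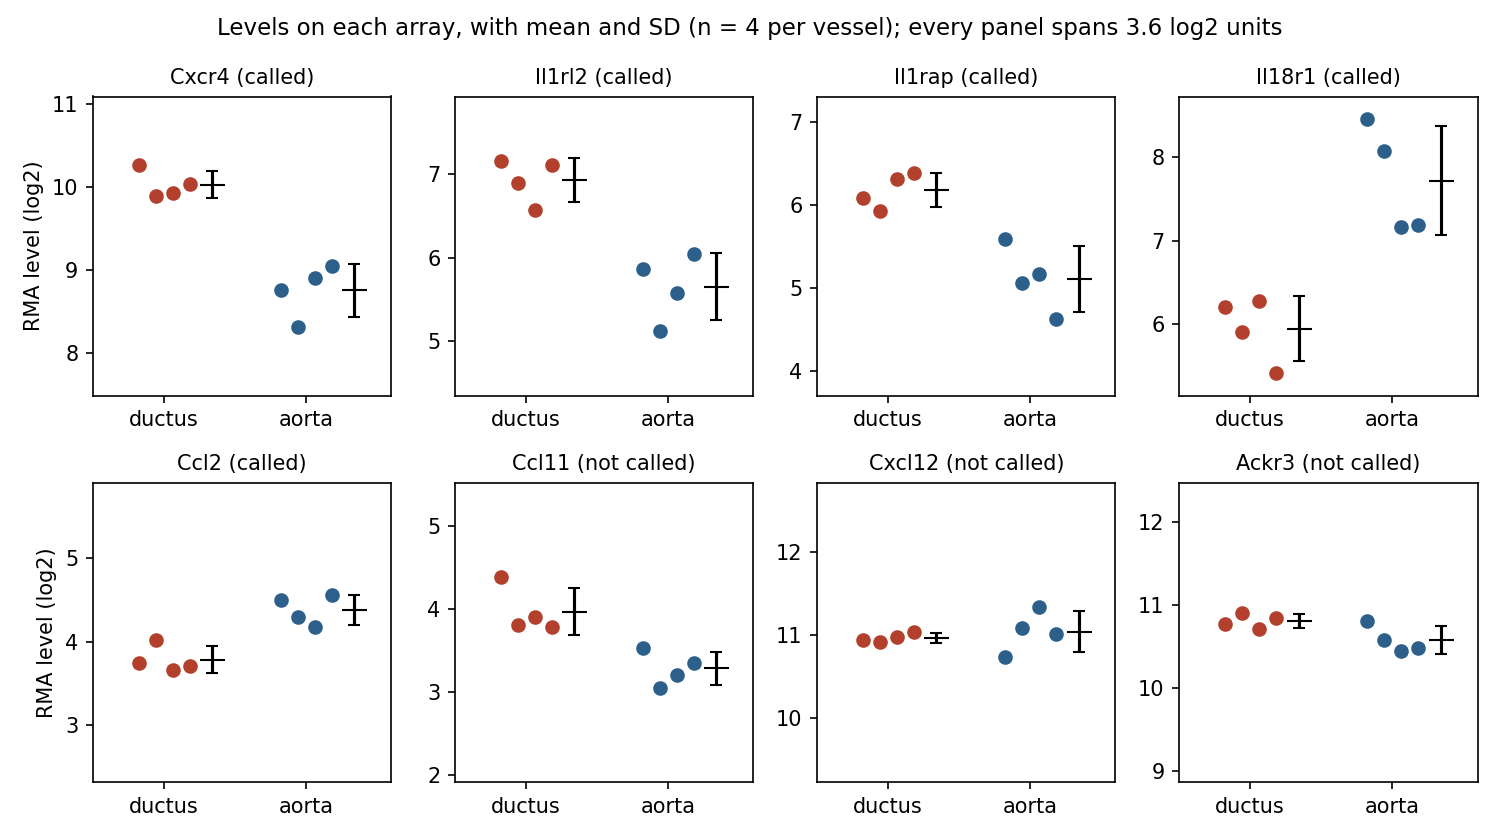
RMA levels (log2) on each array for 8 members, ductus left and aorta right, with mean and SD of 4 arrays per vessel. Every panel spans 3.6 log2 units. The tissues do not overlap in the panels of Cxcr4, Il1rl2, Il1rap, Il18r1, Ccl2 and Ccl11, while those of Cxcl12 and Ackr3 do.

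The other CXC receptors were low and not called. Cxcr3, the receptor for interferon-induced CXCL9 and CXCL10, averaged 3.09 ± 0.187 in the ductus and 3.49 ± 0.320 in the aorta, a difference of -0.41 ± 0.171 (limma, adjusted p = 0.275). Cxcr2, the neutrophil receptor, differed by 0.17 ± 0.171. Cxcr5 and Cxcr6, of follicular and tissue T cells, lay below the first quartile of every array in both tissues.

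None of the 10 CC receptors was called. Ccr2, the monocyte receptor for CCL2, measured 6.70, 6.02, 5.44 and 5.44 in the ductus and 6.13, 5.19, 5.11 and 6.14 in the aorta, with overlap throughout. Its difference of 0.26 ± 0.340 had the opposite sign to that of Ccl2 and was not called (limma, adjusted p = 0.784). Ccr1, a receptor of myeloid cells, differed by 0.44 ± 0.234. For Ccr6, the receptor for CCL20, the ductus arrays (2.70 to 2.84) lay below the aorta arrays (2.96 to 3.19), at signals near the first quartile. That difference of -0.32 ± 0.097 was not called (adjusted p = 0.117).

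Ccr9, a receptor of developing thymocytes and gut-homing T cells, varied more within each tissue than between them. It measured 8.003, 5.52, 6.57 and 3.80 in the ductus and 5.73, 4.19, 3.31 and 7.58 in the aorta. The mean of 14 measured thymocyte markers was 6.65, 4.73, 5.51 and 3.66 on the ductus arrays and 4.28, 3.56, 3.31 and 5.99 on the aorta arrays. The array with the highest Ccr9 in each tissue, ductus replicate 1 and aorta replicate 4, was also the one with the highest thymocyte marker mean. The difference of Ccr9 was 0.77 ± 1.03 (limma, adjusted p = 0.789), and with the thymocyte marker mean as a covariate it was -0.47 ± 0.220. No thymocyte marker was called, but all 14 had a higher mean in the ductus, at a median difference of 0.99. Cxcr4 is also a receptor of thymocytes, and its difference with the same covariate was 1.18 ± 0.165 (adjusted p = 0.00641). Without the 2 arrays of highest thymocyte markers, 3 arrays a tissue, 2 members were called higher in the ductus (Cxcr4 and Il1rl2) and 1 lower (Il18r1). Whether thymocytes contribute to the Cxcr4 difference was not tested.

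The atypical receptors had a median difference of 0.20 and none was called. Ackr4, which scavenges CCL19, CCL21 and CCL25, averaged 7.56 ± 0.179 in the ductus and 7.34 ± 0.108 in the aorta, a difference of 0.22 ± 0.120. Ackr1, the Duffy antigen receptor of venular endothelium and red cells, differed by 0.18 ± 0.216. For Ackr2, a scavenger of inflammatory CC chemokines, the difference was -0.06.

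Of the 36 interleukin receptor genes, 2 were called higher in the ductus (Il1rl2 and Il1rap) and 1 lower (Il18r1), which is 8.33% against 3.86% of all genes. Il1rl2 encodes the receptor for the IL-36 cytokines. It measured 7.16, 6.89, 6.58 and 7.12 in the ductus and 5.86, 5.12, 5.58 and 6.04 in the aorta. Every ductus array lay above every aorta array, with means of 6.94 ± 0.266 and 5.65 ± 0.403. The difference was 1.29 ± 0.211, or 2.44-fold higher in the ductus (limma, adjusted p = 0.00907). Without any 1 array it was 1.11 to 1.42 and stayed called. A second probe set of the gene, with means of 2.53 in the ductus and 2.52 in the aorta, both below the first quartiles, differed by 0.02, and the mean of both probe sets differed by 0.65 (adjusted p = 0.0425).

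Il1rap encodes the accessory chain that interleukin-1, interleukin-33 and IL-36 receptors share. It measured 6.08, 5.93, 6.32 and 6.38 in the ductus and 5.59, 5.07, 5.17 and 4.63 in the aorta. The tissues did not overlap, and the difference of 1.07 ± 0.197 was a 2.09-fold higher level in the ductus (limma, adjusted p = 0.0165). Of its 5 probe sets 4 had this direction, 1 was called and 3 lay below the first quartiles, and their mean differed by 0.42 (adjusted p = 0.0407). The call was lost without ductus replicate 4 (adjusted p = 0.0568) or aorta replicate 2 (0.0551), with the replicate block (0.0702) and with the macrophage covariate (0.0503). It was also lost without both arrays of highest thymocyte markers (0.0686).

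Il18r1 encodes the ligand-binding chain of the interleukin-18 receptor. It had the widest difference of all 85 members, at 6.19, 5.90, 6.27 and 5.40 in the ductus and 8.47, 8.08, 7.16 and 7.18 in the aorta. Every ductus array lay below every aorta array, and means were 5.94 ± 0.393 and 7.72 ± 0.655. The difference was -1.78 ± 0.316, with an interval of -2.49 to -1.07, or 3.44-fold lower in the ductus (limma, adjusted p = 0.0133). Leaving out any 1 array gave -1.97 to -1.53 and kept the call, with an adjusted p of up to 0.0494. Il18rap, the accessory chain of the same receptor, averaged 3.84 ± 0.128 in the ductus and 3.83 ± 0.125 in the aorta, a difference of 0.01.

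The mesothelial markers were lower in the ductus in the same arrays as Il18r1. Their mean was 7.16, 6.69, 7.02 and 6.57 on the ductus arrays and 9.36, 8.49, 7.98 and 8.91 on the aorta arrays, without overlap. With that mean as a covariate the Il18r1 difference was -0.34 ± 0.635 (limma, adjusted p = 0.933). With the macrophage marker mean as a covariate it was -1.56 (adjusted p = 0.0664). Since the mesothelial mean separates the tissues, the tissue and this covariate can hardly be told apart in 8 arrays. In that fit none of the 85 members was called, and Cxcr4 had a difference of 1.46 with an SE of 0.432, against 0.166 without the covariate. The plot of marker means against member levels shows the 8 arrays.

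**Figure D3:**
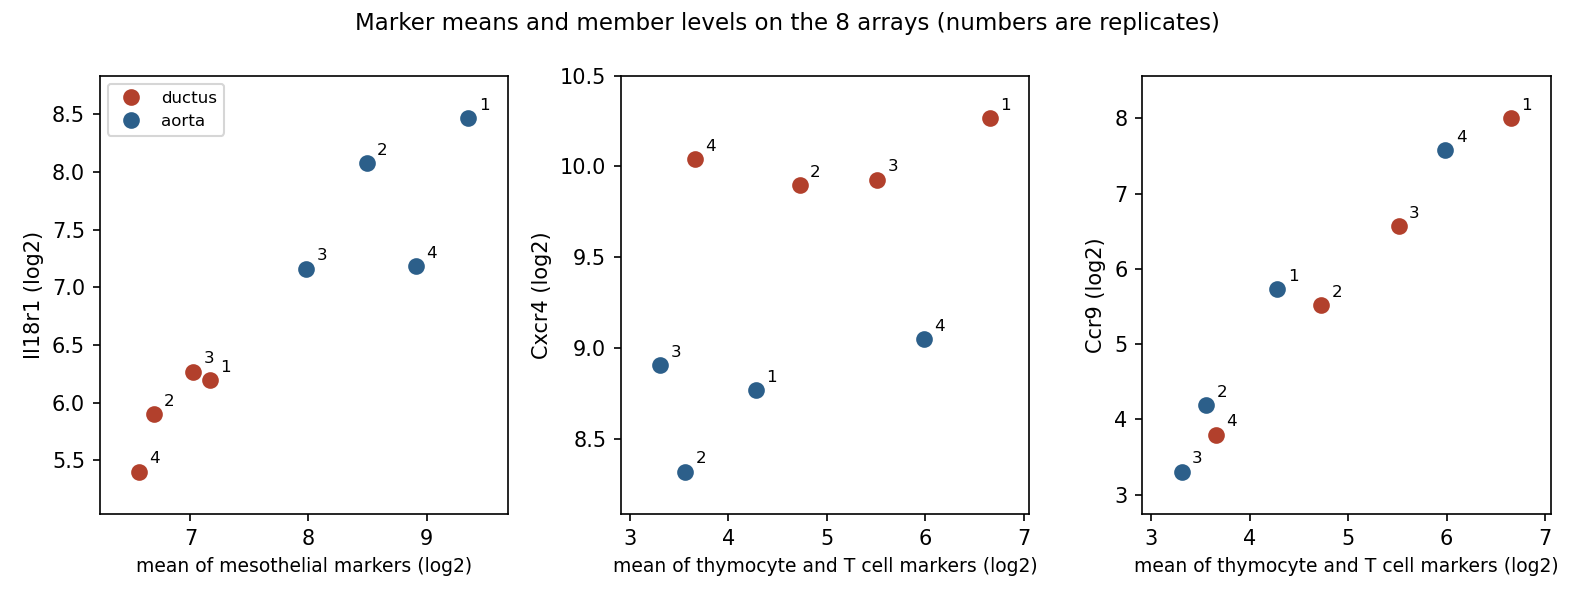
Level of Il18r1 against the mean of mesothelial markers, and of Cxcr4 and Ccr9 against the mean of thymocyte and T cell markers, all log2, on 4 ductus and 4 aorta arrays numbered by replicate. The tissues stand apart on both axes in the first panel, and Ccr9 runs along the thymocyte marker mean in both tissues.

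The interleukin-1 receptor genes lie in a cluster on chromosome 1, where the measured members in order are Il1r2, Il1r1, Il1rl2, Il18r1 and Il18rap. Adjacent measured members thus differed in opposite directions, Il1rl2 by 1.29 and Il18r1 by -1.78. Il1r1, the signalling receptor for interleukin-1, averaged 8.48 ± 0.158 in the ductus and 8.25 ± 0.546 in the aorta. Its difference was 0.22 ± 0.242 (limma, adjusted p = 0.727). Il1r2, the decoy receptor, differed by 0.23 and Il1rn by 0.68, with adjusted p of 0.647 and 0.268.

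Receptors of type 2 and other cytokines were not called. Il13ra1, a binding chain for interleukin-13 that pairs with IL4RA, measured 8.84, 8.42, 8.61 and 8.62 in the ductus and 7.996, 8.16, 8.37 and 8.34 in the aorta. All ductus arrays lay above all aorta arrays, and the difference of 0.41 ± 0.129 was not called (limma, adjusted p = 0.141). Its partner Il4ra measured 5.52, 5.22, 5.61 and 5.06 in the ductus and 5.84, 6.06, 5.67 and 6.06 in the aorta. Here all ductus arrays lay below all aorta arrays, and the difference of -0.55 ± 0.153 was not called either (adjusted p = 0.0889). Il4ra stayed uncalled in all 8 fits without 1 array but was called in 2 of 13 other alternatives (limma, lowest adjusted p = 0.0327). Il6ra, the binding chain for interleukin-6, differed by -0.41 ± 0.189. Il31ra and Il20rb, which bind interleukin-31 and cytokines of the interleukin-20 group, had no overlap between tissues and differences of -0.90 and -0.52. Their adjusted p were 0.0791 and 0.0561. Il27ra and Il17rd each differed by -0.75 in value, and Il7r, the interleukin-7 receptor of lymphocytes, by 0.62, none of them called.

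The genes around the receptors were read from textbook lists with the members left out. Of 34 measured interleukin ligands and antagonists (40 listed), 2 were higher in the ductus and 1 lower, with a median difference of -0.04. Il15, which sustains natural killer and memory T cells, measured 5.99, 6.35, 6.33 and 6.18 in the ductus and 5.35, 4.89, 4.74 and 4.68 in the aorta. The tissues did not overlap, and the difference was 1.30 ± 0.162 (limma, adjusted p = 0.00203), called in all 8 fits without 1 array. With the mesothelial covariate Il15 differed by 1.74 and was not called (adjusted p = 0.216). Its binding chain Il15ra differed by 0.22 (adjusted p = 0.548). Il17b, an interleukin-17 family ligand that binds IL17RB, measured 4.78, 4.16, 5.39 and 4.99 in the ductus and 3.55, 3.90, 3.72 and 3.73 in the aorta. Its difference of 1.11 ± 0.229 was called (adjusted p = 0.0283), in 2 of 8 fits without 1 array, but not with the replicate block (0.0836), the thymocyte covariate (0.0549) or the mesothelial covariate (0.652). The receptor Il17rb differed by 0.05.

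Il33, an alarmin of the interleukin-1 family whose receptor uses IL1RAP, was lower in the ductus. It measured 6.83, 6.64, 6.98 and 6.70 in the ductus and 8.16, 7.81, 7.22 and 7.56 in the aorta. Its difference of -0.90 ± 0.190 (limma, adjusted p = 0.0316) was called in 3 of 8 fits without 1 array. The call was lost with the replicate block (adjusted p = 0.0968) and the macrophage covariate (0.137), and the difference was 0.10 with the mesothelial covariate (0.970). Il18, the ligand of the receptor that contains IL18R1, measured 7.45, 6.599, 6.89 and 6.93 in the ductus and 8.32, 7.41, 7.45 and 7.80 in the aorta. The tissues overlapped, and the difference of -0.78 ± 0.236 was not called (adjusted p = 0.122). The 5 genes of IL-36 and related ligands on the array, looked up after the Il1rl2 value was seen, had means of 2.27 to 2.81 and differences of -0.18 to 0.18. The lowest adjusted p among them was 0.524. Their means lay near or below the first quartiles of the arrays, so none of these ligand genes is shown to be above background.

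Of 24 measured other chemokine system genes (27 listed), none was called higher in the ductus and 2 were lower, with a median of -0.14. Dpp4, a surface protease that cleaves CXCL12 and other chemokines, measured 9.84, 9.88, 9.60 and 9.85 in the ductus and 11.85, 10.89, 10.73 and 10.82 in the aorta. Every ductus array lay below every aorta array, with a difference of -1.28 ± 0.230 (limma, adjusted p = 0.0144). Rarres2, which encodes the chemoattractant chemerin, differed by -1.06 ± 0.177 (adjusted p = 0.01003). With the mesothelial covariate these differences were -0.29 and -0.93, neither called. With the macrophage covariate Rarres2 had an adjusted p of 0.0504. Dpp4 was called in all 8 fits without 1 array. Its call depended on the probe set. Picked by interquartile range, another probe set gave -1.41 and no call (limma, adjusted p = 0.0515). Averaging its probe sets gave -0.92, which was still called (0.0491). Dropping both arrays of highest thymocyte markers also lost the Dpp4 call (0.0749).

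None of 19 measured shared and related cytokine receptor chains (22 listed) was called, with Sigirr, an inhibitory member of the interleukin-1 receptor family, at -0.55 (limma, adjusted p = 0.0948) and Lepr, the leptin receptor, at -0.50. Of 30 measured signalling genes (33 listed), 1 was called. Tnfaip3, which encodes the ubiquitin-editing inhibitor A20 of NF-kappaB signalling, measured 6.15, 5.87, 5.43 and 5.98 in the ductus and 5.14, 5.22, 5.25 and 5.04 in the aorta. The difference was 0.69 ± 0.154 (adjusted p = 0.0390), called in 1 of 8 fits without 1 array. It was 0.39 with the mean over probe sets (adjusted p = 0.0953), and not called with the replicate block (0.130), the trended prior (0.0603), or the macrophage (0.136), thymocyte (0.0593) or mesothelial (0.792) covariate. The shares called in the 4 lists were 8.33%, 8.82%, 0.00% and 3.33%, in the order other chemokine system genes, interleukin ligands, receptor chains and signalling genes, against 3.86% of all genes.

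**Figure D4:**
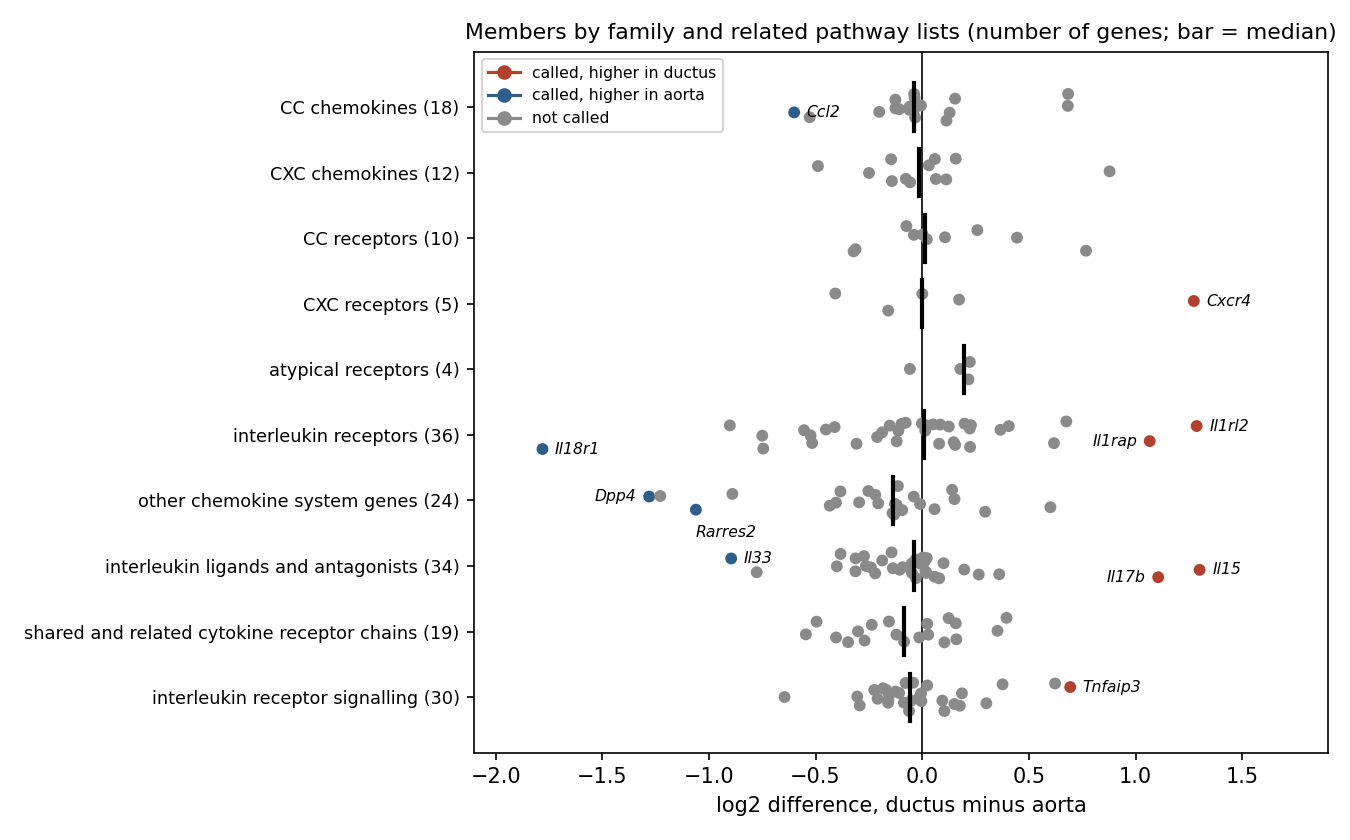
Log2 difference, ductus minus aorta, of every measured gene in the 6 families of members and the 4 related lists, with the number of genes in brackets and the median as a bar. Medians lie between -0.14 and 0.20, and the called genes are coloured and named.

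Ligands and receptors were also set side by side. Of 28 textbook pairs of chemokines and receptors, 23 had both genes measured. In none were both genes called, in 2 a single gene was called and in 21 neither was. The 2 pairs were Cxcl12 with Cxcr4, where the receptor was higher in the ductus, and Ccl2 with Ccr2, where the ligand was lower in the ductus.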

How the data were processed

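Per array and probe set, the deposited table holds log2 values. Per the submitters' processing notes they were made with Partek 6.6 and RMA (background correction, normalization and probe set summary); their settings are not stated. Biotin-labelled cRNA came from 6 ug of total RNA, per the labels' protocols. Of 45101 probe sets, 34945 had exactly 1 gene symbol. They covered 18193 genes, and the probe set with the largest mean over all arrays stood for each. Ductus minus aorta was fitted over all genes with limma's lmFit and eBayes (version 3.58.1, R version 4.3.3; two-sided, no covariate), with Benjamini-Hochberg adjustment across all of them, and genes were called at an adjusted p under 0.05. No filter on low values was applied. Errors are SDs over 4 arrays for levels and model SEs for differences. An exact permutation test of 4 against 4 arrays cannot go below 0.0286.

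The members, gene lists and tests were chosen with earlier results of these data known. Named members are all called ones, the 3 with the highest mean and the 3 with the largest difference in each family, and fixed anchors such as Cxcl12 and Il6ra. In related lists they are the called genes or, where none was called, those of largest difference. Marker lists for 15 cell types were summarised by array. Alternatives covered scaling, filters, probe set choice, array weights, the variance prior, the threshold, a replicate block, marker covariates and leaving out each array. Promoter sequences were taken from RefSeq (GRCm38.p6); the array's build is not given in the sources used, so no other coordinates are printed.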

Additional observations from a re-analysis of the deposited data

Results flagged for a closer look

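In each tissue, every member was searched for an array far from the other 3 (a gap to the nearest array, relative to the range, above Dixon's 95% critical value). Of 170 groups searched, 3 stood out, a smaller share than the about 1 in 20 groups that chance gives. All 3 were aorta replicate 4, the aorta array with the highest thymocyte marker mean, and whether that mean bears on them was not tested. Ccl22, a ligand of CCR4, was 2.87 there and 2.50 to 2.52 on the other aorta arrays. Ccl28, a mucosal chemokine that binds CCR10, was 4.24 there and 3.29 to 3.31 on the others. Il2rb, a chain of the interleukin-2 and interleukin-15 receptors, was 3.21 there and 2.72 to 2.75 on the others. None of the 3 genes was called between the tissues. The tissue means of Ccl22 and Il2rb lay near or below the first quartiles of the arrays (2.74 to 2.86).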

How the results depend on the processing

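Of the 5 called members, Cxcr4 and Il1rl2 kept their call in all 8 fits without 1 array and in 13 of 14 other alternatives, the exception being the mesothelial covariate. Over the named members and all alternatives, 24 limma values lost their call, 6 gained one and 23 changed sign, and 5 uncalled members passed 0.05 in an exact permutation test without adjustment. The counts of members called higher in the ductus and lower were 3 and 2. Leaving out 1 array gave 2 to 3 higher and 1 to 3 lower, and over all genes 233 to 289 higher and 201 to 419 lower. The count of lower members was 1 with the trended prior, with a 2-fold minimum and with the block. It was also 1 without both arrays of highest thymocyte markers (an alternative added after seeing the data). Leaving out the lowest 40% of genes or those under a mean of log2 6 removed Ccl2 before testing, and the count was 1. It was 4 with the mean over probe sets and with the thymocyte covariate, and 0 at an adjusted p under 0.01, with the macrophage covariate and with the mesothelial covariate. With the mesothelial covariate 0 members were higher. Over all genes, higher and lower counts, 328 and 374 as reported, were 208 and 195 with the block, 170 and 134 at an adjusted p under 0.01, 186 and 202 with the 2-fold minimum, 23 and 3 with the mesothelial covariate, and 182 and 139 without both arrays. The lower count was 191 with the macrophage covariate. In the related lists 88 counts of calls stayed within 1.5 times and 50 did not.

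The labels do not say whether a replicate number marks a shared litter. Deviations of same-numbered arrays correlated at -0.227 to -0.068 (4 pairs), and those of other numbers at -0.247 to 0.342 (12 pairs). So few correlations cannot settle whether the numbers pair the samples. With the replicate number as a block, 2 members were higher and 1 lower.

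All changes of sign were in uncalled members, and the cause was not tested. When probe sets were picked by interquartile range, Ccr1 was -0.043 and Ackr4 -0.20. With the macrophage covariate Ccl9 was 0.13. With the thymocyte covariate Ccr2 was -0.054, Ccr9 -0.47, Cxcl1 0.0065 and Ackr1 -0.0012. With the mesothelial covariate Ccl27a was -0.55, Ccl9 0.99, Cxcr2 -0.069, Cxcr3 0.42, Il1r1 -0.49 and Il6ra 0.25. Without both arrays of highest thymocyte markers Il1r1 was -0.01. Leaving out 1 array gave -0.0093 to 0.42 for Ccr2, -0.20 to 0.077 for Ccl9, -0.12 to 0.35 for Cxcl14, -0.022 to 0.25 for Ccl6, -0.18 to 0.020 for Cxcl12, -0.054 to 0.20 for Ccl27a and -0.042 to 0.37 for Il1r1. Low signal limits the 19 members below the first quartiles, for which a difference could be compressed, and no detection call was at hand.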
